A study of Mus musculus with 81 samples.

Results

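Gene expression in CA1 pyramidal neurons (PNs) was compared between trisomic Ts65Dn (Ts) mice and disomic (2N) mice whose dams received the normal choline diet. The comparison used the CA1 libraries labelled Ts or 2N with this diet, which are 5 Ts and 6 2N libraries, 1 per mouse, of 81 libraries in the series. Ts65Dn females were crossed with F1 males of C57Bl/6J Eicher and C3H/HeSnJ, so the mice of both genotypes were not inbred. All were males of about 6 months, their dams had 1.1 g/kg choline chloride until weaning, and after weaning every mouse ate the same control diet. CA1 PNs were cut by laser capture from Nissl-stained rostral hippocampal sections of 20 μm, on average about 950 neurons per brain in groups rather than singly. Groups of neurons cut in this way can take in neighbouring cells, and in bulk samples fewer cells of a type and less RNA per cell cannot be told apart.

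Ts65Dn mice carry an extra small chromosome that joins the distal end of chromosome 16 (Mmu16) to the centromeric end of chromosome 17 (Mmu17). The Mmu16 part holds genes whose human counterparts lie on chromosome 21, among them App, the precursor of the amyloid-β peptide, and the kinase gene Dyrk1a. The Mmu17 part has no counterpart on human chromosome 21, which limits Ts65Dn as a model of Down syndrome. CA1 PNs are excitatory neurons that receive the output of CA3 and send the main output of the hippocampus to the subiculum and cortex, and CA2 is a narrow field between CA3 and CA1 with markers of its own.

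The libraries were checked against marker genes of the hippocampal fields before genotypes were compared. The total expected count, an estimate of the reads from all genes, ran from 943299 to 1657389 in Ts and from 786648 to 1486710 in 2N libraries, and mitochondrial genes held 4.74 to 9.90% of it. Counts were scaled to CPM, counts relative to the library total corrected with TMM. The mean log2 CPM of 6 CA2 markers was 7.10 in the Ts library of mouse 16-357, 7.85 in the 2N library of mouse 17-21 and 5.90 in the library labelled 2N of mouse 17-154, and 1.93 to 3.11 in the other 8 libraries. Amigo2 stood at 283, 432 and 111 CPM in these CA2-rich libraries and at 0 to 17.4 CPM in the others. CA3 markers were also higher in them, with a mean log2 CPM of 3.95, 4.35 and 3.40 over 5 genes, against 1.90 to 2.68 in the others. In the library of mouse 17-21 the mean of 7 CA1 markers was 2.73, with Pou3f1 listed at 0, against 6.21 to 7.82 in the other 10 libraries. Of these markers, Spink8 went the other way. It measured 72.7, 67.2 and 55.0 CPM in the CA2-rich libraries of mice 16-357, 17-21 and 17-154 and 24.9 to 42.7 CPM in the others. Of the choroid plexus markers, Ttr and Folr1 were at 0 in all 11 libraries. Kl, the other marker of that list, measured 35.9 to 90.4 CPM in Ts and 4.64 to 79.8 CPM in 2N libraries. Results are therefore given for all 11 libraries and for the 8 libraries without the CA2-rich ones (4 Ts and 4 2N).

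The triplicated genes set the library of mouse 17-154 apart from the other 2N libraries. The mean log2 CPM over 61 triplicated Mmu16 genes was 5.58 to 5.76 in the Ts libraries, 5.05 to 5.30 in the other 2N libraries and 5.68 in that library. Over 24 triplicated Mmu17 genes the means were 4.76 to 4.93 in Ts, 4.20 to 4.45 in the other 2N libraries and 4.81 in mouse 17-154. The CA3 PN and dentate libraries of mouse 17-154 had Mmu16 means of 5.03 and 5.10, within the 4.95 to 5.16 of the 2N libraries of those populations. In CA1, and not in its CA3 and dentate libraries, mouse 17-154 thus ranked with Ts for the triplicated Mmu16 genes, and its CA1 library was also CA2-rich. The labels of mouse 15-145 conflict, with its CA1 and dentate libraries labelled 2N and its CA3 library labelled Ts. That CA3 library was left out of the 2N range above. It had an Mmu16 mean of 5.21, against 5.56 to 5.66 in the other CA3 libraries labelled Ts. The cause was not tested.

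**Figure D1:**
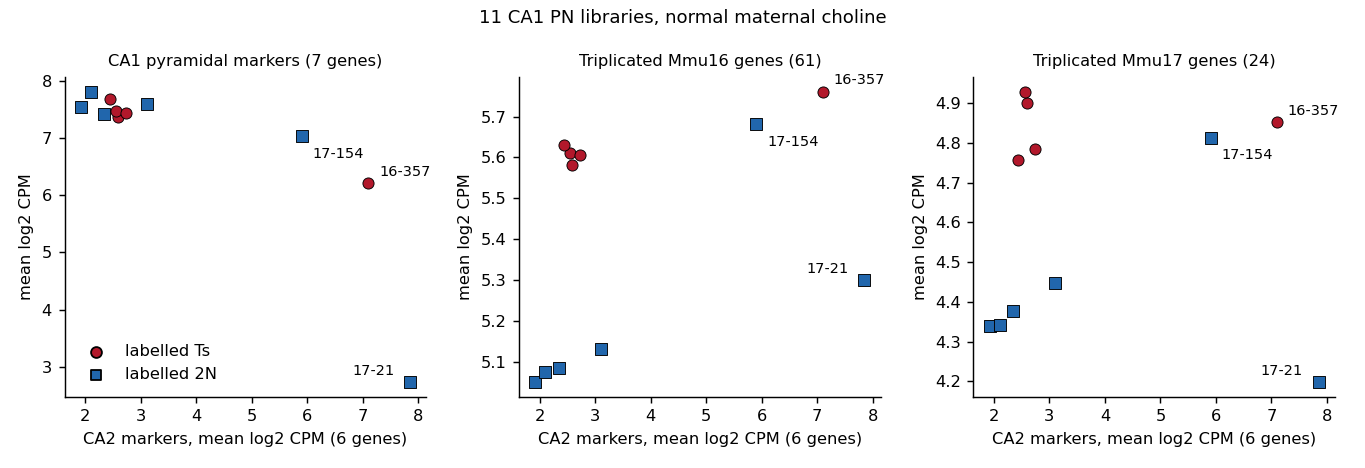
Mean log2 CPM of the CA2 markers (x axis) in each of the 11 CA1 libraries against the mean log2 CPM of the CA1 markers and of the triplicated Mmu16 and Mmu17 genes (y axes), with 1 point per library, coloured by labelled genotype. The CA2-rich libraries lie at 5.90 or more on the x axis, and the library labelled 2N of mouse 17-154 lies with the Ts libraries in the Mmu16 and Mmu17 panels.

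Across all 11 libraries, 12286 genes were tested with edgeR and 463 (3.77%) had an unadjusted p under 0.05, which defined differentially expressed genes (DEGs). Of these, 219 (1.78% of the genes tested) were upregulated and 244 (1.99%) downregulated in Ts, and 1 gene (0.00814%), Col22a1, had a Benjamini-Hochberg adjusted p under 0.05. Without the CA2-rich libraries there were 872 DEGs among 12794 genes (6.82%), with 414 upregulated (3.24%) and 458 downregulated (3.58%), and 38 genes (0.297%) had an adjusted p under 0.05. The DEGs in both were 304, which is 65.7% of the 463 and 34.9% of the 872, and all 304 had the same direction. Scaled by library totals in place of TMM, the split was 312 upregulated to 136 downregulated in 11 libraries and 511 to 358 in 8, so the balance of directions depended on the scaling. Leaving out single libraries gave 339 to 690 DEGs, and without the Ts library of mouse 17-153 0 genes had an adjusted p under 0.05. The log2 fold change of Ts over 2N (LFC) had a median over all genes of -0.01 in 11 and 0.00 in 8 libraries. LFCs are given with their SE, first for 11 and then for 8 libraries, and are those of DEGs unless stated otherwise.

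The triplicated genes were higher in Ts CA1 PNs, with medians of 0.39 on Mmu16 and 0.40 on Mmu17 in 11 libraries and 0.55 on both in 8. On GRCm39 the Mmu16 segment was taken from the start of Mrpl39 to the end of Zbtb21 (chr16:84502276-97763836), with 298 annotated genes in the files, of which 61 passed the filter on low values in 11 libraries and 62 in 8. Of the 61, 27 were upregulated and 0 downregulated with a median LFC of 0.39, where 1.78% of all genes tested were upregulated. Of the 62, 39 were upregulated and 0 downregulated with a median LFC of 0.55, against 3.24% of all genes, and 18 had an adjusted p under 0.05. The log2 of 1.5, the ratio of the gene copies, is 0.585, and it lay within 2 standard errors (SE) of the LFC for 56 of 61 genes in 11 libraries and 56 of 62 in 8. Every Ts library exceeded every 2N library in 6 of 61 genes (0.244% of all genes tested) and, in the 8 libraries, in 27 of 62 (2.11% of all genes). With the library of mouse 17-154 alone left out, 37 Mmu16 genes were upregulated and the median LFC was 0.54. Without the other CA2-rich libraries, of mice 16-357 and 17-21, and with that of mouse 17-154 kept, which was chosen after seeing the data, 25 were upregulated and the median was 0.41.

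The Mmu17 segment, from the centromere to the end of Pde10a at position 9205482, had 124 annotated genes in the files, of which 24 were tested in 11 libraries and 26 in 8. In 11 libraries 9 were upregulated and 1 downregulated, the pseudogene Tmem181c-ps (LFC -1.09 ± 0.52, SE), and the median LFC was 0.40. In 8 libraries 11 were upregulated and 0 downregulated, with a median of 0.55, and Tulp4, Scaf8 and Synj2 had an adjusted p under 0.05. Tmem181c-ps shares sequence with the Tmem181 genes, so its count is less certain.

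Genes before Mrpl39 and after Pde10a showed no such shift. Of the 331 genes of chromosome 16 before Mrpl39 that were tested in 11 libraries, 2 were upregulated and 5 downregulated, with a median LFC of -0.01, and in 8 libraries the counts were 14 and 14 of 342 with a median of 0.00. The gene tested next to the segment, the cell adhesion gene Ncam2, was downregulated with LFCs of -0.54 ± 0.23 in 11 and -0.54 ± 0.19 in 8 libraries, whereas Mrpl39, the first gene inside, had 0.35 ± 0.21 and 0.51 ± 0.22, of which the second passed p under 0.05. After Pde10a, 8 of 527 genes were upregulated and 15 downregulated in 11 libraries, and 12 and 15 of 551 in 8, with a median of -0.02 in both. Qki, the next gene tested, had LFCs of -0.13 ± 0.15 and -0.15 ± 0.16 and was not a DEG. Beyond Zbtb21, toward the distal end of chromosome 16 that the extra chromosome carries, 2 genes were tested. These were A630089N07Rik (0.80 ± 0.49 and 0.95 ± 0.56) and B230307C23Rik (0.40 ± 0.36 and 0.52 ± 0.39). They overlap each other, were not DEGs in either set and were not counted in the segment as taken here.

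**Figure D2:**
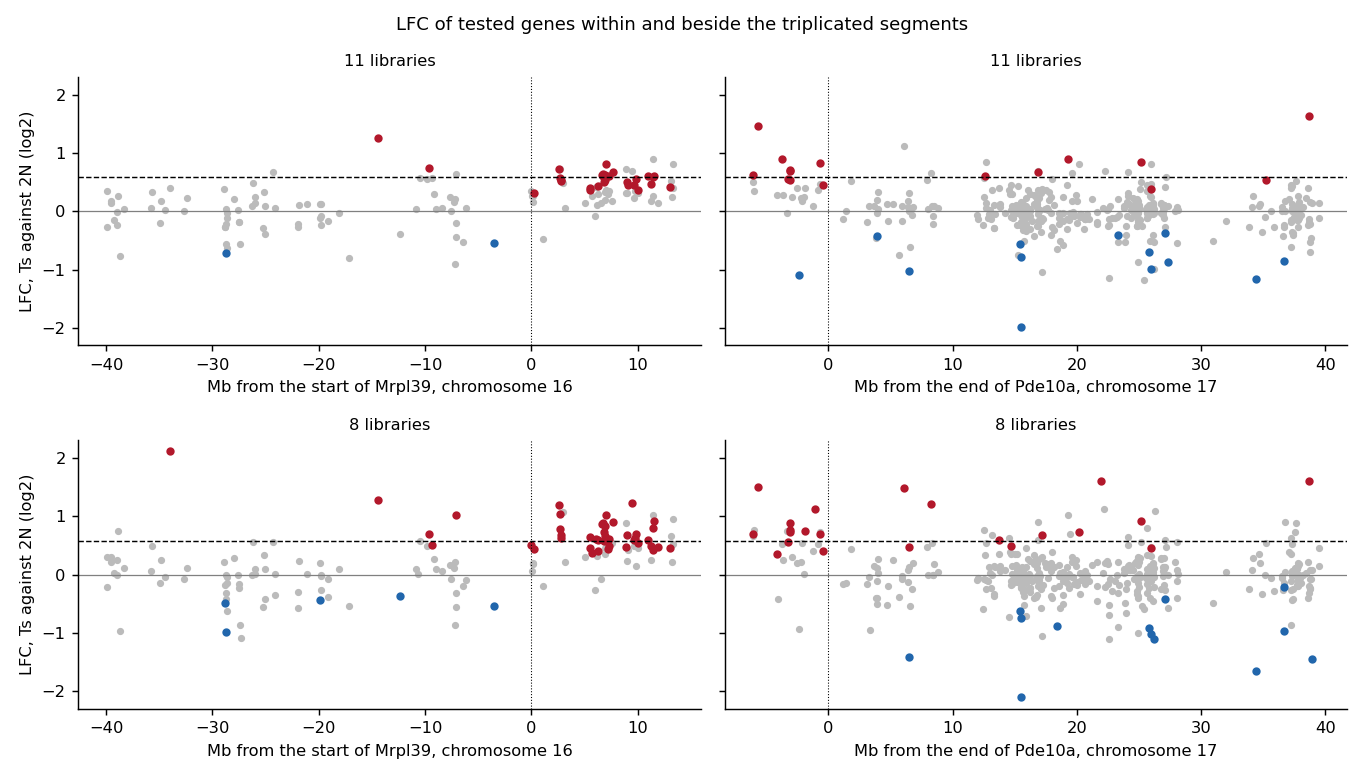
LFC of Ts over 2N (y axis, log2) of each gene tested on chromosome 16 and chromosome 17 against its distance in megabases from the start of Mrpl39 or from the end of Pde10a (x axis, to 40 megabases outside), in all 11 libraries and in the 8 libraries without the CA2-rich ones. Red and blue points are genes up- and downregulated at an unadjusted p under 0.05, and the dashed line is at 0.585. The points inside the triplicated segments lie mostly above 0, with medians of 0.39 and 0.40 in 11 libraries and 0.55 and 0.55 in 8, and the points before Mrpl39 and after Pde10a centre on 0, while the 2 genes beyond Zbtb21 lie at 0.40 to 0.95.

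Among the abundant Mmu16 genes, Son and Dyrk1a separated the genotypes in all 11 libraries. Son (ENSMUSG00000022961, chr16:91443949-91476605), which encodes a splicing cofactor of nuclear speckles, measured 989, 979, 989.8, 1048 and 1005 CPM in the Ts libraries of mice 16-357, 16-490, 17-153, 17-157 and 17-173, the order used throughout. The 2N libraries ran from 597 to 957 CPM (median 628). No 2N library reached the lowest Ts library, and the highest was that of mouse 17-154 at 957, with the next at 688. The LFC of Son was 0.54 ± 0.12 (adjusted p = 0.902 by edgeR) in 11 libraries and 0.67 ± 0.09 (adjusted p = 4.72e-05) in 8, which was the smallest p of all genes there.

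Dyrk1a (ENSMUSG00000022897, chr16:94369804-94496380), a kinase that phosphorylates NFAT and tau among other proteins, measured 174, 184, 161, 185 and 202 CPM in Ts and 88.2 to 159 CPM (median 126) in 2N libraries. The groups did not overlap, with mouse 17-154 again the highest 2N library. Its LFC was 0.56 ± 0.14 in 11 libraries and 0.69 ± 0.13 (adjusted p = 0.00331) in 8 by edgeR. Rcan1, which encodes an inhibitor of the phosphatase calcineurin, measured 42.2, 72.9, 81.9, 70.7 and 83.6 CPM in Ts and 18.5 to 76.9 CPM (median 41.5) in 2N. The lowest Ts library was the CA2-rich 16-357 and the highest 2N library was 17-154, and without the CA2-rich libraries the Ts values of 70.7 to 83.6 all exceeded the 2N values of 29.4 to 51.6. The LFC of Rcan1 was 0.67 ± 0.29 and, in 8 libraries, 0.91 ± 0.18 (adjusted p = 0.00736 by edgeR). Of the 12 genes of the calcineurin and NFAT list tested, these 2 were the upregulated ones in both sets (1.78% and 3.24% of all genes). In 11 libraries 0 were downregulated. Rcan3 (-1.33 ± 0.60) was downregulated in 8, where the list had a median LFC of -0.01.

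App (ENSMUSG00000022892, chr16:84746573-84971126) was higher in Ts than in every 2N library but that of mouse 17-154. The Ts libraries measured 2829.7, 2737, 2792, 2558 and 2899.5 CPM and the 2N libraries 1914 to 3210.5 CPM (median 2027). Mouse 17-154 was above all Ts libraries, and the next 2N library had 2229.9. The LFC was 0.31 ± 0.13 in 11 libraries and 0.44 ± 0.08 (adjusted p = 0.00331 by edgeR) in 8, where the groups did not overlap. App was the only DEG among 16 genes of the App processing list tested, and its β-secretase Bace1 had LFCs of 0.11 ± 0.14 and -0.06 ± 0.14, neither with p under 0.05. Bace2, a homolog of Bace1 on the Mmu16 segment, measured 0.781 to 7.11 CPM in Ts and 0 to 2.82 CPM (median 0.955) in 2N libraries and did not pass the filter on low values.

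The vesicle endocytosis genes Synj1 and Itsn1 on Mmu16 and Synj2 on Mmu17 were higher in Ts in the 8 libraries. Synj1 (chr16:90732969-90808396), a phosphoinositide phosphatase that uncoats synaptic vesicles, measured 1161, 1112, 1008, 1088 and 1124 CPM in Ts and 693 to 1189.8 CPM (median 742) in 2N, with mouse 17-154 as the highest library of all 11. Its LFC was 0.44 ± 0.13 in 11 libraries and 0.59 ± 0.09 (adjusted p = 0.000162 by edgeR) in 8. Itsn1, a scaffold of clathrin-mediated endocytosis, measured 327, 212, 221, 220.2 and 210.2 CPM in Ts and 132 to 284 CPM (median 150.2) in 2N. All 3 CA2-rich libraries were high in Itsn1, at 327, 284 and 250.3, and its LFC went from 0.37 ± 0.22 (not a DEG) to 0.61 ± 0.11 (adjusted p = 0.00331 by edgeR) without them. Synj2 (chr17:5991555-6094586), the paralog of Synj1, measured 156, 201, 189, 182 and 180.1 CPM in Ts and 79.97 to 152 CPM (median 133) in 2N, and every Ts library exceeded every 2N library. Its LFC was 0.55 ± 0.15 in 11 and 0.56 ± 0.12 (adjusted p = 0.0207 by edgeR) in 8 libraries. Of 39 endosome and endocytosis genes, 2 were upregulated and 0 downregulated in 11 libraries (1.78% of all genes were upregulated) and 6 and 1 in 8 (3.24%), with medians of 0.04 and 0.03. In 8 libraries the additional genes were Itsn1, Rab11a, Rab7 and Vps26c upregulated and Amph downregulated.

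Kcnj6, the GIRK2 potassium channel subunit that GABA-B receptors open, measured 236, 222, 287, 254 and 261 CPM in Ts and 161 to 269 CPM (median 185) in 2N libraries. It was higher in every Ts library than in all 2N libraries but that of mouse 17-154, with LFCs of 0.37 ± 0.14 and 0.55 ± 0.11 (adjusted p = 0.0114 by edgeR). Among the 21 GABA receptor and GIRK genes tested, Kctd12, an auxiliary GABA-B subunit, went the other way and was downregulated in both sets (-0.38 ± 0.14 and -0.47 ± 0.11). Sod1, the cytosolic superoxide dismutase, measured 107, 131, 124, 129 and 127 CPM in Ts and 74.5 to 153 CPM (median 83.8) in 2N. Mouse 17-154 was again the highest of all libraries, and the LFC was 0.39 ± 0.17 in 11 and 0.65 ± 0.13 (adjusted p = 0.0119 by edgeR) in 8 libraries.

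The receptor chains for interferons on Mmu16 were upregulated together. Ifnar1, a chain of the type I interferon receptor, measured 55.5, 47.99, 70.8, 48.5 and 61.2 CPM in Ts and 28.6 to 53.6 CPM (median 33.00) in 2N libraries, with LFCs of 0.64 ± 0.18 and 0.88 ± 0.19 (adjusted p = 0.0207 by edgeR). Ifngr2, a chain of the interferon γ receptor, had 0.51 ± 0.16 and 0.73 ± 0.16 (adjusted p = 0.0283 by edgeR), and Ifnar2 had 0.63 ± 0.26 and 0.88 ± 0.32, both with unadjusted p under 0.05. These were the 3 upregulated genes among the 9 receptor chains tested (of all genes, 1.78% and 3.24% were upregulated), and 0 were downregulated. All 3 are triplicated. In each, without the CA2-rich libraries, all Ts libraries exceeded all 2N libraries, as in 2.11% of all genes tested.

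Other Mmu16 genes with an adjusted p under 0.05 in 8 libraries were Ttc3, Ltn1, Cct8, Dop1b, Brwd1, Cryzl1, B3galt5 and N6amt1. Ttc3, a ubiquitin ligase gene, measured 1394, 1616, 1566, 1722 and 1621 CPM in Ts and 929.5 to 1679 CPM (median 1097) in 2N, with LFCs of 0.45 ± 0.14 and 0.60 ± 0.08 (adjusted p = 0.000148 by edgeR). Ltn1, a ligase that tags stalled nascent chains on ribosomes, had 0.57 ± 0.16 and 0.79 ± 0.14, and Cct8, a subunit of the chaperonin that folds actin and tubulin, had 0.54 ± 0.14 and 0.63 ± 0.13 with no overlap between genotypes in 11 libraries. The LFCs of the others ran from 0.49 (Brwd1) to 1.19 (N6amt1) in 8 libraries. Per transcript length, Ttc3 was at a mean of 403 TPM in 2N libraries, App at 605, Synj1 at 172, Son at 90.95 and Ifnar1 at 9.89, so the called genes covered a wide range of levels.

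On Mmu17, Tulp4 and Gtf2h5 had the smallest p in 11 libraries. Tulp4 (chr17:6156712-6301403), which encodes a tubby-like protein, measured 224, 174, 193, 167 and 168 CPM in Ts and 93.1 to 179 CPM (median 104) in 2N, and the highest 2N library, mouse 17-154, lay above 3 of the 5 Ts libraries. Its LFC was 0.68 ± 0.16 (adjusted p = 0.970) in 11 and 0.77 ± 0.12 (adjusted p = 0.000510) in 8 libraries by edgeR. Gtf2h5 (chr17:6130061-6137387), a small subunit of the transcription factor TFIIH, measured 60.96, 69.9, 74.2, 53.5 and 71.5 CPM in Ts and 34.96 to 49.02 CPM (median 39.2) in 2N. The groups did not overlap and mouse 17-154 was not raised at 40.2, with LFCs of 0.71 ± 0.15 and 0.72 ± 0.18 (adjusted p = 0.0586 by edgeR). Pde10a, a cyclic nucleotide phosphodiesterase and the last gene of the segment, had LFCs of 0.45 ± 0.19 and 0.40 ± 0.11 and was upregulated in both, with an adjusted p of 0.200 by edgeR in 8 libraries. Its lowest value was 63.7 CPM in the CA2-rich library of mouse 17-21, against 132 to 167 in the other 2N libraries.

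Some triplicated genes followed the CA2 markers more than the genotype. Pcp4, which encodes a calmodulin-binding peptide and is known as a CA2 marker, measured 259, 2.37, 2.56, 0 and 0 CPM in Ts libraries, and in 2N libraries 336 in mouse 17-21, 152 in mouse 17-154 and 0 to 10.2 in the rest. Tiam2, a Rac activator on Mmu17, had 146, 71.2 and 168 CPM in the CA2-rich libraries and 0 to 9.39 in the others, and neither gene passed the filter on low values. Its Mmu16 relative Tiam1 measured 99.2, 42.1, 43.5, 41.4 and 43.1 CPM in Ts and 27.3 to 79.97 CPM (median 40.1) in 2N, with the CA2-rich libraries highest. The LFC of Tiam1 was 0.14 ± 0.34 in 11 and 0.30 ± 0.19 in 8 libraries, neither with p under 0.05. The cell adhesion gene Dscam, also chosen after its values were seen, showed the same order, with 210.2, 173 and 195 CPM in the CA2-rich libraries against 66.6 to 120.2 in the other Ts and 61.2 to 76.5 in the other 2N libraries, and its LFC was 0.14 ± 0.42 in 11 libraries (not a DEG) and 0.48 ± 0.16 in 8 (upregulated, adjusted p = 0.424 by edgeR). The kainate receptor subunit Grik1 was low at 0.853 to 7.03 CPM in Ts, and its LFC of 0.22 ± 0.65 in 8 libraries had an SE too wide to tell 1.5-fold from no change.

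Not every tested triplicated gene passed p under 0.05, although most had a positive LFC. In 11 libraries 59 of 61 Mmu16 and 22 of 24 Mmu17 genes had one, and in 8 libraries 59 of 62 and 24 of 26. In neither set of libraries were 21 of 61 Mmu16 genes and 12 of 24 Mmu17 genes upregulated. Among them were Atp5pf, an ATP synthase subunit, with LFCs of 0.16 ± 0.19 and 0.20 ± 0.15, the transcription factor Gabpa with 0.26 ± 0.20 and 0.19 ± 0.18, and Zbtb21, the last gene of the segment, with 0.25 ± 0.15 and 0.21 ± 0.17. The lowest LFC of the Mmu16 genes in 8 libraries was that of Mis18a at -0.26 ± 0.35, which measured 5.97 to 17.97 CPM in Ts. These genes were chosen after their values were seen.

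**Figure D3:**
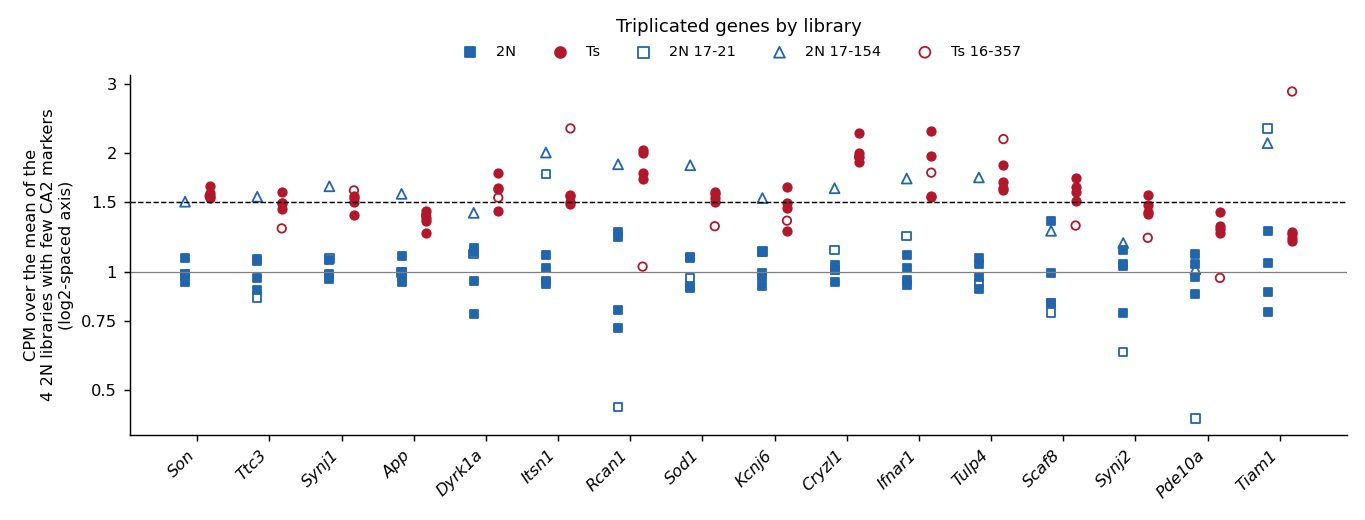
CPM of 16 triplicated genes in each of the 11 libraries (1 point per library, coloured by labelled genotype, open where CA2-rich), divided by the mean of the 4 2N libraries that are not CA2-rich, on a log2-spaced axis, with a dashed line at 1.5. Most Ts libraries lie near the dashed line. The library labelled 2N of mouse 17-154 lies above all Ts libraries for App and Synj1, among them for Ttc3 and below all of them for Son. Tiam1 is highest in the CA2-rich libraries.

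Outside the triplicated segments 17 genes had an adjusted p under 0.05 in 8 libraries, 7 higher and 10 lower in Ts, and Col22a1 also in 11. Col22a1 (ENSMUSG00000079022, chr15:71667644-71906095), a collagen of tissue junctions, measured 11.7, 17.2, 25.6, 13.1 and 10.3 CPM in Ts and 0 to 3.68 CPM (median 1.09) in 2N libraries. The lowest Ts library was above the highest 2N library, and the library of mouse 17-154, at 0.705 CPM, was at the 2N level for this gene. The LFC was 3.44 ± 0.47 (adjusted p = 0.00883) in 11 and 3.30 ± 0.52 (adjusted p = 0.000510) in 8 libraries by edgeR. Col4a1, a chain of basement membrane collagen, measured 113, 84.7, 72.5, 69.7 and 103 CPM in Ts and 32.8 to 83.9 CPM (median 50.8) in 2N, and its highest 2N library was mouse 17-154. Its LFC was 0.70 ± 0.22 and 0.95 ± 0.18 (adjusted p = 0.00407 by edgeR), and its neighbour and partner chain Col4a2 had 0.55 ± 0.22 and 0.75 ± 0.21. Of the collagen and matrix genes tested, 25 in 11 and 29 in 8 libraries, these 3 were upregulated in both sets (1.78% and 3.24% of all genes). The laminin gene Lamb2 was the 1 downregulated, and the medians were -0.10 and -0.16. The summed CPM of 5 vascular markers was 19.2 to 30.2 in the Ts and 22.1 to 33.9 in the 2N libraries of the 8.

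Cnih3, an auxiliary subunit of AMPA receptors, was upregulated in both sets of libraries. It measured 3.91, 10.7, 23.04, 27.3 and 16.4 CPM in Ts and 1.16 to 9.80 CPM (median 5.45) in 2N libraries. The Ts values spread widely, with the CA2-rich library of mouse 16-357 within the 2N range, and the LFC was 1.57 ± 0.46 in 11 and 1.66 ± 0.38 (adjusted p = 0.0380 by edgeR) in 8 libraries. Cacng2, the AMPA receptor subunit known as stargazin, had LFCs of 0.44 ± 0.19 and 0.64 ± 0.21. With Cacng3 (0.31 ± 0.15), which passed in the 8 libraries, these were the upregulated genes of 15 AMPA receptor genes tested (2 in 11 and 3 in 8 libraries, against 1.78% and 3.24% of all genes), 0 were downregulated, and the list had medians of -0.01 and -0.02. The pore subunit Gria2, with LFCs of 0.01 ± 0.15 and 0.00 ± 0.08, was no DEG. Lrfn4, a synaptic adhesion gene, had 0.74 ± 0.20 and 0.73 ± 0.25, and Neurl1a, a ubiquitin ligase gene, measured 52.4, 59.3, 54.6, 51.5 and 65.5 CPM in Ts and 29.6 to 47.8 CPM (median 38.7) in 2N, with no overlap. Dgkb, a diacylglycerol kinase, had 0.54 ± 0.24 and 0.56 ± 0.12 (adjusted p = 0.0207 by edgeR), with mice 16-357 and 17-21 lowest in their groups at 111 and 93.9 CPM.

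Further upregulated genes were Scube1, Jmjd4, Fbxo42, Hpcal4 and Ide. Scube1, a secreted and membrane-bound glycoprotein, measured 31.3, 26.1, 20.5, 30.3 and 41.4 CPM in Ts and 8.16 to 23.3 CPM (median 17.3) in 2N, with LFCs of 0.89 ± 0.26 and 1.19 ± 0.29 (adjusted p = 0.0586 by edgeR). The groups overlapped through the lower Ts and the higher 2N libraries, and were apart without the CA2-rich ones. Jmjd4 and Fbxo42 were apart in all 11 libraries, with LFCs of 0.63 ± 0.19 and 0.46 ± 0.16, and the neuronal calcium sensor Hpcal4 had 0.41 ± 0.13. Ide, the insulin-degrading enzyme that also cleaves amyloid-β, measured 32.04, 36.7, 29.01, 43.4 and 31.9 CPM in Ts and 14.2 to 39.4 CPM (median 19.6) in 2N. The highest 2N library of Ide was mouse 17-21, and its LFC went from 0.60 ± 0.24 to 1.05 ± 0.24 (adjusted p = 0.0339 by edgeR) without the CA2-rich libraries. The laminin receptor integrin Itga7 also had an adjusted p under 0.05 in 8 libraries (0.89 ± 0.20), with 0.35 ± 0.43 in 11, where it was not a DEG.

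Of the downregulated genes, Ucp2 had the largest change in 8 libraries among those with an adjusted p under 0.05. Ucp2, a mitochondrial uncoupling protein gene, measured 1.56, 3.56, 5.12, 6.06 and 0.862 CPM in Ts and 1.41 to 37.99 CPM (median 14.4) in 2N libraries. The 2 CA2-rich 2N libraries were low at 1.41 (mouse 17-154) and 2.32 (mouse 17-21), inside the Ts range, and the other 4 lay between 12.4 to 37.99. The LFC was -2.19 ± 0.78 in 11 and -2.55 ± 0.41 (adjusted p = 0.000999 by edgeR) in 8 libraries. Ndst4, an enzyme that modifies heparan sulfate, measured 21.1, 63.4, 90.4, 65.7 and 74.1 CPM in Ts and 1.16 to 152 CPM (median 115) in 2N, and its lowest values in each genotype were in the CA2-rich libraries. It had no call in 11 libraries (-0.57 ± 0.69) and -0.83 ± 0.15 (adjusted p = 0.00331 by edgeR) in 8.

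Fam107a, Ppp1r15a and Ndufa13 were downregulated with no overlap of the groups in 11 libraries, as 20 genes were of all those tested (0.163%), against 236 (1.84%) in the 8. Fam107a, a stress-responsive actin-binding gene, measured 36.7, 36.1, 23.04, 24.2 and 24.99 CPM in Ts and 38.8 to 88.1 CPM (median 48.1) in 2N, with LFCs of -0.85 ± 0.22 and -0.75 ± 0.21 (adjusted p = 0.167 by edgeR). Ppp1r15a, the GADD34 subunit that restores translation after stress, measured 4.69, 10.1, 7.68, 7.07 and 10.3 CPM in Ts and 11.6 to 20.8 CPM (median 17.01) in 2N, with -1.02 ± 0.28 and -0.93 ± 0.32. Its lowest library of all was the Ts library of mouse 16-357. Ndufa13, a subunit of respiratory complex I, measured 71.1, 75.8, 53.8, 50.5 and 71.5 CPM in Ts and 77.3 to 131 CPM (median 94.4) in 2N, with -0.59 ± 0.16 and -0.49 ± 0.16. None of these 3 had an adjusted p under 0.05 in either set.

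Other downregulated genes were the semaphorin receptor Nrp2 (-0.67 ± 0.20 and -0.83 ± 0.21), the splicing factor Rbm17 (-0.66 ± 0.18 and -0.58 ± 0.19), Ildr2 (-0.57 ± 0.18 and -0.66 ± 0.15), Amot (-0.74 ± 0.24 and -0.83 ± 0.28) and Tomm7, a part of the outer mitochondrial membrane translocase (-0.63 ± 0.21 and -0.65 ± 0.22). Ildr2 reached an adjusted p of 0.0464 by edgeR in 8 libraries, as did the imprinted gene Nap1l5 with 0.0339 (-0.57 ± 0.13). Ntrk2, the receptor for brain-derived neurotrophic factor, had -0.21 ± 0.10 and -0.24 ± 0.09 (adjusted p = 0.549 by edgeR). It measured 563, 485, 491, 525 and 551 CPM in Ts and 553 to 652 CPM (median 609) in 2N libraries, and was the 1 DEG among the 4 neurotrophin and receptor genes tested. Upf3b, which couples exon junctions to nonsense-mediated decay, was the 1 DEG among 21 genes of that pathway (-0.69 ± 0.28 and -0.86 ± 0.24).

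**Figure D4:**
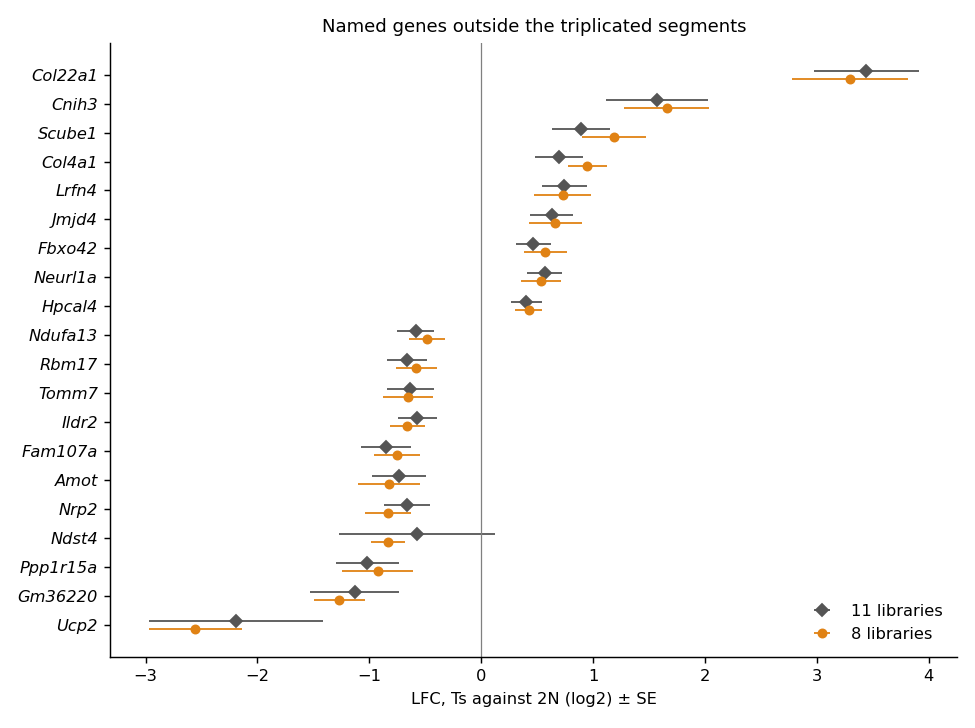
LFC of Ts over 2N (x axis, log2; bars are 1 SE) of 20 genes outside the triplicated segments, in all 11 libraries and in the 8 libraries without the CA2-rich ones. Both estimates lie on the same side of 0 for each gene, and Col22a1 has the highest at 3.44 in 11 libraries.

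Cytosolic ribosomal protein genes were lower in Ts as a group of small differences. Of 82 tested, 0 were upregulated and 10 downregulated in 11 libraries (12.2%, against 1.99% of all genes downregulated), with a median LFC of -0.22, and 0 and 18 in 8 (against 3.58%), with a median of -0.25. Rpl13a measured 119.6, 156, 148, 100.0 and 161 CPM in Ts and 159 to 219.6 CPM (median 173) in 2N libraries and had LFCs of -0.42 ± 0.14 and -0.44 ± 0.13. Rpl13 (-0.46 ± 0.16 and -0.56 ± 0.18), Rpsa (-0.40 ± 0.15 and -0.43 ± 0.14) and Rpl12 (-0.46 ± 0.22 and -0.54 ± 0.18) were also downregulated in both, although the call of Rpl12 was lost under 16 of 24 alternatives, and Rplp1 had an adjusted p of 0.0339 by edgeR in 8. With library totals in place of TMM the downregulated genes were 5 and 14 and the medians -0.17 and -0.23. Their share of all counts was 0.265 to 0.390% in Ts and 0.308 to 0.478% in 2N libraries, which overlapped. RSEM divides reads between these genes and their many processed pseudogenes, so their counts are less certain.

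Of 48 translation factors tested, 0 were upregulated and 5 downregulated in 11 libraries and 0 and 6 in 8 (against 1.99% and 3.58% of all genes downregulated), with medians of -0.09 and -0.07. With library totals, 1 was upregulated and 2 downregulated in 11 libraries and 0 and 4 in 8. Eif5, which acts in start codon selection, measured 162, 162, 164, 151 and 153 CPM in Ts and 161 to 219 CPM (median 196) in 2N, with LFCs of -0.30 ± 0.11 and -0.37 ± 0.11. The initiation factor Eif3a (-0.40 ± 0.14 and -0.36 ± 0.13) and the elongation factor Eef1b2 (-0.43 ± 0.18 and -0.49 ± 0.19) were downregulated in both. Of 78 nuclear genes for oxidative phosphorylation, 0 were upregulated and 6 downregulated in 11 libraries (7.69%, against 3.77% of all genes). In 8 libraries 2 were upregulated and 5 downregulated (8.97%, against 6.82% of all genes). The medians were -0.08 and -0.10. Ndufb11 (-0.46 ± 0.18 and -0.49 ± 0.21) and Atp5mc2 (-1.37 ± 0.52 and -1.82 ± 0.62) were downregulated in both beside Ndufa13, while Atp5po, a Mmu16 gene of the list, was upregulated in 8 (0.44 ± 0.15). The 7 mitochondrially encoded subunits tested had 0 DEGs in either set, with medians of -0.12 and 0.08.

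Of 21 genes of PKA subunits and Gs signaling, 3 were upregulated and 2 downregulated in 11 libraries (23.8%, against 3.77% of all genes) and 4 and 3 in 8 (33.3%, against 6.82%), with medians of 0.01 and 0.04. Besides the triplicated Pde10a, the G protein gene Gnal (0.46 ± 0.19 and 0.50 ± 0.21) and the regulatory subunit Prkar1b (0.22 ± 0.10 and 0.23 ± 0.10) were upregulated in both, and the regulatory subunit Prkar2b, which measured 3.91, 4.15, 7.68, 7.07 and 4.31 CPM in Ts and 6.95 to 16.2 CPM (median 10.6) in 2N, was downregulated in both (-1.01 ± 0.34 and -0.99 ± 0.40). Neither the catalytic subunit Prkacb (0.21 ± 0.19 and 0.11 ± 0.12) nor the G protein gene Gnas was a DEG. Gnas had 0.00 ± 0.22 and 0.08 ± 0.10, and stood at 978 and 1091 CPM in mice 16-357 and 17-21 against 460.3 to 652 elsewhere. Of 34 voltage-gated potassium channel genes, 8.82% in 11 and 5.88% in 8 libraries were DEGs, against 3.77% and 6.82% of all genes. Kcns1 was upregulated (0.99 ± 0.40 and 1.13 ± 0.54) and the auxiliary Kcnab3 downregulated (-0.46 ± 0.21 and -0.54 ± 0.23) in both. The 13 NMDA and kainate receptor genes had 0 DEGs in 11 libraries and 1, Neto1, in 8 (against 3.77% and 6.82% of all genes). The 8 genes of the metabotropic glutamate receptor list had 0 and 2 (Grm4 and the scaffold gene Homer1).

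The vesicle release list differed between the 11 and the 8 libraries. Of 46 genes, 0 were DEGs in 11 libraries, and 8 were upregulated and 2 downregulated in 8 (against 3.24% and 3.58% of all genes), with medians of -0.01 and 0.07. Snap25, the SNARE of synaptic vesicle fusion, measured 2837, 2319 and 3577 CPM in the CA2-rich libraries, 1196 to 1288 in the other Ts and 955 to 1160.2 in the other 2N libraries. Its LFC was -0.12 ± 0.43 (not a DEG) in 11 and 0.24 ± 0.08 (adjusted p = 0.455 by edgeR) in 8 libraries. Of 20 immediate early genes, Ier2 was upregulated in both (1.06 ± 0.47 and 1.42 ± 0.58), and the list had 1 upregulated and 0 downregulated genes with a median of 0.31 in 11, and 2 and 3 with a median of 0.09 in 8 libraries. Autophagy genes had 1 DEG of 39 in 11 and 0 in 8 libraries, and genes of the TCA cycle 0 and 1 of 22. Protein import into mitochondria had 2 and 4 of 34, and calcium and sodium channels 1 and 1 of 23. Of all genes tested, 3.77% in 11 and 6.82% in 8 libraries were DEGs.

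**Figure D5:**
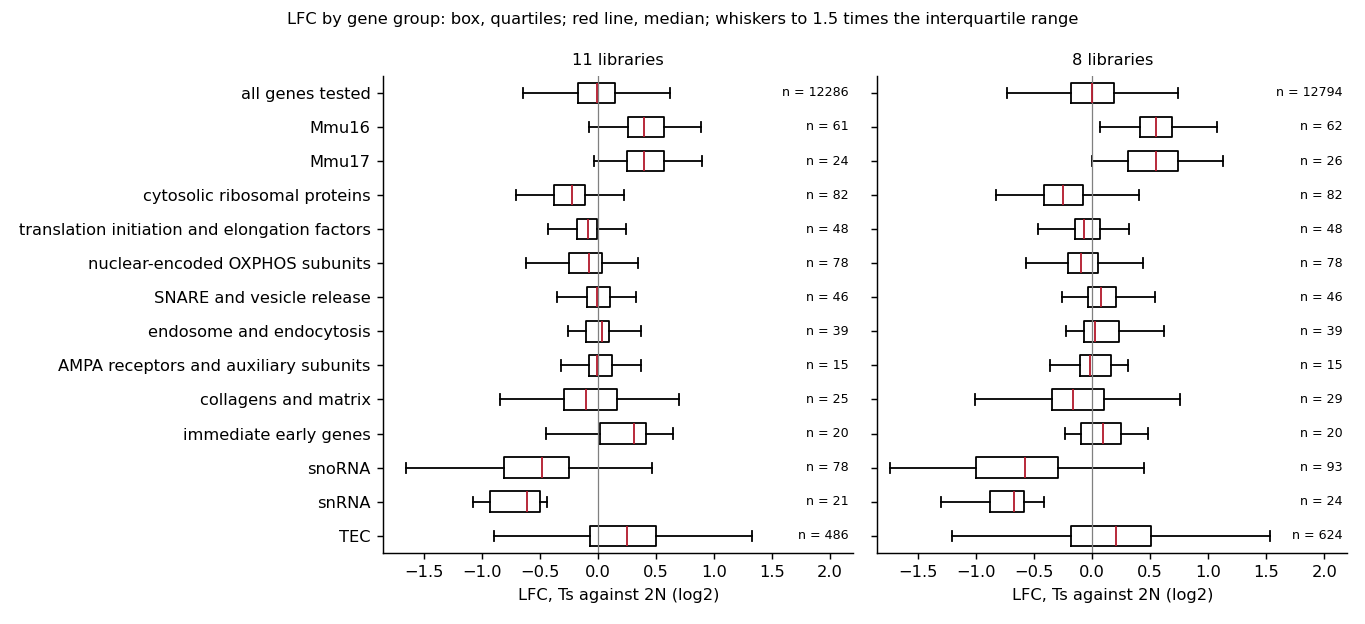
LFC of Ts over 2N (axis in log2; boxes span the quartiles, with the median as a line) of the genes tested in 14 gene groups in all 11 and in the 8 libraries without the CA2-rich ones. Both triplicated segments lie above 0, and the boxes of the small nucleolar, small nuclear and ribosomal protein genes lie below 0.

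Markers of other cell types were compared beside these results. In the 8 libraries, 0 of 6 astrocyte, 5 oligodendrocyte, 4 microglia and 4 vascular markers tested were DEGs, 2 of 9 interneuron markers were downregulated (Gad1, -0.32 ± 0.15, and Slc32a1, -0.59 ± 0.28), and 1 of 7 CA1 markers, Wfs1, was downregulated. Wfs1 measured 352 to 642 CPM in the 4 Ts and 739 to 859.8 in the 4 2N libraries (-0.81 ± 0.17, adjusted p = 0.167 by edgeR). The choroid plexus marker Kl was upregulated in 8 libraries (0.35 ± 0.16) and not a DEG in 11 (0.40 ± 0.46). In 11 libraries the microglia marker Cx3cr1 was upregulated (1.117 ± 0.47), and all 4 microglia markers tested had positive LFCs in both sets, with medians of 0.44 and 0.54. In 8 libraries 0 of 5 oligodendrocyte, 1 of 9 interneuron, 1 of 4 vascular and 2 of 6 astrocyte markers had positive LFCs. Their medians were -0.40, -0.37, -0.39 and -0.05. In 11 libraries 2, 2, 2 and 3 of these were positive. The summed CPM of the interneuron markers was 147 to 208 in Ts and 189 to 235 in 2N, and that of the microglia markers 17.2 to 26.1 in Ts and 5.46 to 23.9 in 2N libraries. In the CA2-rich libraries the interneuron markers summed to 339 to 470.5 CPM against 147 to 235 in the other 8, and the oligodendrocyte markers to 178 to 316 against 110.2 to 202. The part of other cells in the differences above was not tested.

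Small nucleolar and small nuclear RNAs were lower in Ts CA1 PNs, with medians below that of every pathway list. Small nucleolar RNAs (snoRNAs) guide the modification of ribosomal and spliceosomal RNA, those with C and D boxes methylation and those with an ACA box pseudouridylation, and most are cut out of introns of host genes. Of 93 snoRNAs tested in 8 libraries, 82 had a negative LFC, 22 were downregulated (23.7%, against 3.58% of all genes) and 0 upregulated, and the median LFC was -0.58. In 11 libraries 7 of 78 were downregulated and 0 upregulated, with a median of -0.48. Of 24 small nuclear RNAs (snRNAs), parts of the spliceosome, 6 were downregulated and 0 upregulated in 8 libraries and 3 of 21 in 11, with medians of -0.67 and -0.61. The snoRNA share of all counts was 0.041 to 0.151% in Ts and 0.071 to 0.222% in 2N libraries, which overlapped.

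The members with an adjusted p under 0.05, and 1 of the C and D box kind, are shown with their sequences on GRCm39 from GENCODE M39. Snora68 (chr8:71348403-71348533, minus strand) carries the letters ACA 3 bases before its 3′ end, in capitals. Snord60 (chr17:24747450-24747527, plus strand) carries TGATGA near its 5′ end and CTGA near its 3′ end, in capitals. Gm22220 (chr12:54286024-54286172, plus strand) is annotated as an snRNA and shares 53 of its 130 words of 20 bases with Rnu1a1, a copy of U1 snRNA, so reads of U1 copies and Gm22220 are hard to assign.
Snora68: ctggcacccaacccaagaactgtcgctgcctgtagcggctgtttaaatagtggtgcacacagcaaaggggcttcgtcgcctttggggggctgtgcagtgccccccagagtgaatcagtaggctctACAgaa
Snord60: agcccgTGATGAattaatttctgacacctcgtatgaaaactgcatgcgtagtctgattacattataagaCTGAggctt
Gm22220: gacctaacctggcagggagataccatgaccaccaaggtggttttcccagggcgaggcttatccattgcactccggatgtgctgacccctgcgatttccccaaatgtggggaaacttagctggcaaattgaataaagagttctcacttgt

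Snora68 measured 2.34, 9.48, 8.53, 3.03 and 6.03 CPM in Ts and 8.46 to 30.1 CPM (median 19.5) in 2N libraries. The lowest 2N library was mouse 17-154 at 8.46, inside the Ts range, and all other 2N libraries were above all Ts libraries. The LFC was -1.65 ± 0.38 in 11 and -1.47 ± 0.34 (adjusted p = 0.0378 by edgeR) in 8 libraries. Snord60 was low, at 0.781, 0.593, 2.56, 0 and 1.72 CPM in Ts and 2.32 to 8.59 CPM (median 4.30) in 2N, with LFCs of -1.99 ± 0.55 and -2.10 ± 0.64. Gm22220 measured 11.7, 18.96, 12.8, 20.2 and 29.3 CPM in Ts and 7.05 to 72.6 CPM (median 38.6) in 2N, the lowest library of all was mouse 17-154, and the groups overlapped also without it. Its LFC was -1.07 ± 0.48 and -1.30 ± 0.26 (adjusted p = 0.0128 by edgeR), and Rnu11, the U11 snRNA of the minor spliceosome, had -0.82 ± 0.48, not a DEG, and -0.94 ± 0.26.

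The snoRNAs were grouped by the letters of their boxes. The letters ACA stood 3 bases before the 3′ end in 18.0% of 1507 annotated snoRNAs and in 42 of the 93 tested in 8 libraries. Of these 42, 8 were downregulated, with a median LFC of -0.61, where 3.58% of all genes were downregulated. TGATGA in the first 15 bases with CTGA in the last 15 was found in 19.2% of the annotated and in 23 of the tested snoRNAs, of which 7 were downregulated, with a median of -0.49. The 28 tested snoRNAs with neither had 7 downregulated and a median of -0.59. In 11 libraries 1 of 37 with ACA was downregulated, where 1.99% of all genes were, 4 of 18 with TGATGA and CTGA and 2 of 23 with neither, with medians of -0.59, -0.54 and -0.37. The 71 host genes tested in 8 libraries had a median LFC of -0.12, and 13 were downregulated and 1 upregulated (against 3.58% and 3.24% of all genes). A snoRNA lies within its host, so reads of the unspliced host on the same strand count for either.

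Long noncoding RNAs with an adjusted p under 0.05 in 8 libraries were lower in Ts for Dancr, Gm36220 and 1110038B12Rik and higher for B830012L14Rik. Dancr measured 20.3, 34.4, 30.7, 22.2 and 46.5 CPM in Ts and 32.4 to 91.9 CPM (median 60.9) in 2N libraries, again with mouse 17-154 as the lowest 2N library, and had LFCs of -0.95 ± 0.26 and -1.05 ± 0.20 (adjusted p = 0.00442 by edgeR). Gm36220 had -1.13 ± 0.40 and -1.27 ± 0.23, and 1110038B12Rik, on chromosome 17 outside the triplicated segment, -0.98 ± 0.29 and -1.01 ± 0.19. B830012L14Rik (chr12:109642711-109680989) had 0.81 ± 0.20 and 0.81 ± 0.19 (adjusted p = 0.0464 by edgeR). Transcripts of the annotation class TEC, mostly unspliced models that await experimental evidence, had a median LFC of 0.20 in 8 libraries, where 27 of 624 were upregulated and 7 downregulated, against 3.24% and 3.58% of all genes. As a whole, 626 long noncoding RNAs had 24 upregulated and 25 downregulated genes and a median of 0.03.

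The same genotype comparison in mice of choline-supplemented dams (5.0 g/kg), 9 Ts and 7 2N libraries of other mice, was used to see which differences stood there too. In a fit of all 27 CA1 libraries, 386 of 16225 genes were upregulated in Ts on the supplemented diet (2.38%) and 11 genes (0.0678%) had an adjusted p under 0.05. Of the 62 Mmu16 genes, 41 were upregulated there, 9 of them with an adjusted p under 0.05, and of the 26 Mmu17 genes 15 and 2. App had an LFC of 0.62 ± 0.09 and Son 0.64 ± 0.09 on that diet. By edgeR, 0 genes had an adjusted p under 0.05 for the difference in LFC between diets, normal minus supplemented. An unadjusted p under 0.05 was found for 523 (3.22%). For App the difference was -0.28 ± 0.13, under an unadjusted p of 0.05 (adjusted p = 0.9999 by edgeR). This fit kept the library labelled 2N of mouse 17-154, where App, at 3210.5 CPM, was above all Ts libraries of the normal diet. The normal-diet LFC of App was 0.34 in this fit and 0.44 in the 8 libraries without the CA2-rich ones.

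Outside the segments, Col22a1 (2.55 ± 0.77), Col4a1 (0.42 ± 0.19), Neurl1a (0.32 ± 0.12), Gnal (0.38 ± 0.15) and Ier2 (1.25 ± 0.58) had an unadjusted p under 0.05 in the supplemented mice too, as did Ildr2 (-0.32 ± 0.14) and Kctd12 (-0.22 ± 0.10). Ucp2 had -1.04 ± 0.60 there. Cnih3 had -0.05 ± 0.61, Lrfn4 -0.12 ± 0.19, Fbxo42 -0.16 ± 0.13, Fam107a 0.10 ± 0.18 and Ppp1r15a 0.47 ± 0.27 in the supplemented mice. The difference between diets, normal minus supplemented, was 0.89 ± 0.30 for Lrfn4, 0.66 ± 0.21 for Fbxo42, -0.93 ± 0.28 for Fam107a and -1.46 ± 0.41 for Ppp1r15a, each with an unadjusted p under 0.05 and an adjusted p above it (0.9999 by edgeR for each). For Cnih3 it was 1.65 ± 0.98 and did not reach an unadjusted p of 0.05. The snoRNAs had a median LFC of 0.02 on the supplemented diet with 3 upregulated and 0 downregulated of 167, the snRNAs 0.16 and the ribosomal protein genes -0.01. Snora68 had 0.59 ± 0.32 there and a difference between diets of -2.21 ± 0.50, with an unadjusted p under 0.05 and an adjusted p of 0.9999 by edgeR.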

How the data were processed

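Libraries were made by the study from nanogram amounts of RNA of laser-captured CA1 PNs with a stranded total RNA kit for low inputs. Per the submitters' processing notes, reads were checked with FastQC 0.11.9 and trimmed with Trimmomatic 0.39, with STAR, RSEM and Picard 2.26.2 and the build GRCm39 also named (mm10 is listed too). The authors deposited RSEM expected counts per gene, which are estimates and need not be whole, and TPM values, which divide by transcript length. Expected counts were rounded and tested with edgeR 4.0.16 (R 4.3.3; quasi-likelihood test, robust fit, TMM). Genes over 0.1 CPM in all but 1 library entered a fit (10 of 11, or 7 of 8 libraries), and library totals were 786648 to 1657389. P-values are unadjusted unless called adjusted (Benjamini-Hochberg over all genes tested). The SE is the LFC over the square root of F, and CPM are TMM-scaled over the 11 libraries. The study also adjusted for RNA concentration and read metrics, which were not used here. Triplicated segments and gene symbols come from GENCODE M39 (56310 of 57010 gene IDs matched).

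Members, gene lists and the libraries left out were chosen with earlier results of these data known. The text names genes with an adjusted p under 0.05, the triplicated genes with the smallest p over both fits and a fixed list of known ones, the 8 higher and 8 lower coding genes outside the segments with the smallest p over both fits at a mean of at least 10 CPM, up to 3 DEGs of both fits per list, and 6 genes named by the study. Any other gene was named after its values were seen. Alternatives were DESeq2 1.42.0, limma-voom (limma 3.58.1), other scalings and filters, 1 surrogate variable (sva 3.50.0), a CA2 marker covariate, both diets in 1 fit, and leaving out libraries. The fits were tested on simulated data. Whether molecular identifiers entered the counts is not given in the sources used here, and the spread is that between mice.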

Additional observations from a re-analysis of the deposited data

Results flagged for a closer look

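Groups of 4 to 10 libraries were searched for 1 library far from the others (Dixon's test, 182 groups), and 29 values stood apart, where chance gives about 1 in 20 groups. The library labelled 2N of mouse 17-154 stood apart above the other 2N libraries in 9 triplicated genes, with App at 3210.5 CPM (others 1914 to 2229.9), Son at 957 (597 to 688), Synj1 at 1189.8 (693 to 780.0), Ttc3 at 1679 (929.5 to 1164), Dop1b at 195 (113 to 139), Kcnj6 at 269 (161 to 197), Tulp4 at 179 (93.1 to 111), Sod1 at 153 (74.5 to 89.5) and Cryzl1 at 41.6 (24.03 to 28.97). The cause was not tested.

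The CA2-rich Ts library of mouse 16-357 stood apart in Pcp4 (259 CPM, others 0 to 2.56), Tiam2 (146, others 0.593 to 9.39), Tiam1 (99.2, others 41.4 to 43.5), Itsn1 (327, others 210.2 to 221) and Gnas (978, others 544 to 620.2). Its mean log2 CPM stood apart for CA1 markers (6.21, others 7.38 to 7.68), CA2 markers (7.10, others 2.44 to 2.73), excitatory markers (9.61, others 9.31 to 9.34), oligodendrocyte markers (5.08, others 3.63 to 3.78), choroid plexus markers (2.303, others 2.65 to 2.73) and triplicated Mmu16 genes (5.76, others 5.58 to 5.63). The CA2-rich 2N library of mouse 17-21 stood apart in Gnas (1091 CPM, others 460.3 to 652), Gria2 (1019.9, others 1647 to 1948), Pde10a (63.7, others 132 to 167), CA1 markers (2.73, others 7.04 to 7.82) and choroid plexus markers (1.45, others 2.38 to 2.67). The choroid plexus means rest on Kl alone, since Ttr and Folr1 were at 0.

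Among the remaining libraries, Kcnab3 was at 30.2 CPM in the Ts library of mouse 16-490 (others 17.1 to 19.2), and the Ts library of mouse 17-173 had 84.4 CPM of Ifngr2 (others 73.7 to 76.6) and 20.7 of Lrfn4 (others 28.1 to 30.3). Oligodendrocyte precursor markers had a mean log2 CPM of 1.52 in the 2N library of mouse 17-172 (others 1.96 to 2.11).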

How the results depend on the processing

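No paired analysis was possible because the Ts and 2N libraries come from different mice. In 11 libraries, the DEGs were 1067 with no filter on low counts, 869 with 1 surrogate variable, 790 with the CA2 marker covariate, 760 without mice 17-21 and 17-154, and 776 without mice 16-357 and 17-21, the last chosen after seeing the data. Genes with an adjusted p under 0.05 were 15, 3, 18 and 15 under the first 4 of these and 0 with both diets in 1 fit (edgeR; 623 genes had an unadjusted p under 0.05 there). Without a filter 15 Mmu17 genes were upregulated, and without mice 17-21 and 17-154 the Mmu16 median was 0.60. In 8 libraries, DESeq2 gave 483 DEGs, filterByExpr an Mmu16 median of 0.58, the filter on the smaller group an Mmu17 median of 0.66, and no filter 90 adjusted calls and an Mmu17 median of 0.71. Leaving out 1 library at a time gave, in 11 libraries, 339 to 690 DEGs, 0 to 4 adjusted calls, 21 to 37 upregulated Mmu16 genes with medians of 0.37 to 0.54, and 7 to 12 Mmu17 genes with medians of 0.31 to 0.57. In 8 libraries these were 741 to 919, 24 to 38, 33 to 43 with 0.53 to 0.59, and 9 to 12 with 0.50 to 0.63.

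Of 1626 values of 68 named genes under alternatives, 1479 kept direction and call, 115 lost and 12 gained the call, and 20 reversed. The call was lost most often for Rpl12 (16 of 24 alternatives), Ntrk2 (12), Kcnab3 (11) and Prkar1b (10). The reversed values were LFCs near 0 of Gnas (-0.17 to 0.21 without 1 library), Gria2 (-0.10 to 0.12 without 1 library, -0.063 with the surrogate variable, -0.034 with the CA2 covariate, -0.10 without mice 17-21 and 17-154 and -0.0019 in 8 libraries), Grik1 (-0.30 to 0.53 without 1 library), Tiam1 (-0.19 to 0.32 without 1 library, and -0.030 without mice 16-357 and 17-21), and Ndst4 (0.11 by limma-voom). The cause was not tested. At totals of 786648 to 1657389 per library, genes near 1 CPM rest on about 1 read, which limits the precision of their LFCs.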
